A study of Mus musculus with 100 samples.

Results

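The difference between STR/ort and MRL/MpJ mice in how the knee joint transcriptome responded to injury at 2-weeks post-injury was measured as an interaction of strain and injury. It is the log2 change from uninjured to injured joints in STR/ort minus the same change in MRL/MpJ, so a value above 0 means a larger rise, or a smaller fall, in STR/ort. The comparison used 20 of the 100 RNA-seq libraries of the study, 5 in each of the 4 groups, and every one of the 17310 genes tested. The study asked which early transcriptional changes accompany post-traumatic osteoarthritis in mouse strains that differ in susceptibility, and its labels class STR/ort as highly susceptible, C57BL/6 (C57BL/6J in the study's methods) as moderately susceptible and MRL/MpJ as not susceptible. The right knees of 10-week-old mice were injured by a compressive load of 10 to 12 N on the tibia, which ruptures the anterior cruciate ligament, and the injured joints and the uninjured contralateral joints were collected 2 weeks later. The RNA of all 4 groups came from the intact knee, trimmed through femur and tibia with a little soft tissue still attached, and the labels name the same animal for the injured and the uninjured library of each replicate number, so 5 MRL/MpJ and 5 STR/ort animals gave both joints. The contralateral joint is therefore the control of the same injured animal and not a joint of an unloaded mouse.

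After a joint injury, fibroblasts of the synovium, capsule and ligament become activated, deposit collagens and matricellular proteins, and secrete metalloproteinases and their inhibitors, while transforming growth factor beta and activin are among the signals known to drive that matrix program. Cartilage matrix is made of type II collagen and aggrecan, and the metalloproteinases and ADAMTS proteases are known for degrading it in osteoarthritis. In whole-joint RNA, fewer cells of a type and less RNA per cell cannot be told apart.

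The total count per library in the 4 groups ranged from 8778124 to 14998354 (median 11434033). A single injured joint stood apart before any gene was tested. In the injured MRL/MpJ library of animal 4, log2 CPM correlated with the mean of the other libraries of its group with r = 0.933, against 0.981 to 0.993 for the other 4 libraries of that group, and the summed level of 21 fast muscle genes was 205021 CPM, against a group median of 111246 CPM, a lowest value of 92429 CPM, and 106878 to 150202 CPM in uninjured MRL/MpJ joints and 89959 to 151496 CPM in STR/ort joints. The number of calls and some list medians are also given without it.

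At 2-weeks post-injury, 78 genes responded differently to injury in STR/ort and MRL/MpJ (0.451% of genes tested; edgeR quasi-likelihood test, Benjamini-Hochberg adjusted p below 0.05 and a difference above 1.5-fold). In 75 of them the change was larger in STR/ort (0.433%) and in 3 it was smaller (0.0173%). The median interaction over all genes was 0.01 on the log2 scale, and 8880 of the 17310 genes had a value above 0. A total of 118 genes passed the adjusted p alone, and 1631 had an unadjusted p below 0.05. The 75 genes had a median difference of 0.87 (from 0.59 to 3.44), a median injury response of 1.18 in STR/ort and 0.29 in MRL/MpJ, all as log2 changes. All 75 were called up in injured STR/ort joints, where 4.34% of genes were called up, and 11 were also called up in injured MRL/MpJ joints, where 1.14% were called up. The remaining 64 were not called in MRL/MpJ. Their MRL/MpJ change was above 0 for 64 of the 75 genes and below 0 for 11. These counts use the libraries that the interaction itself used and are descriptions of it. Without the injured MRL/MpJ library of animal 4, 150 genes were called, 112 larger and 38 smaller in STR/ort, and 74 of the 78 genes remained called. Other choices lowered the count, to 49 with RLE size factors, 37 with the filter of edgeR (filterByExpr), 36 with the compared groups only and 21 without the uninjured MRL/MpJ library of animal 1.

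**Figure D1:**
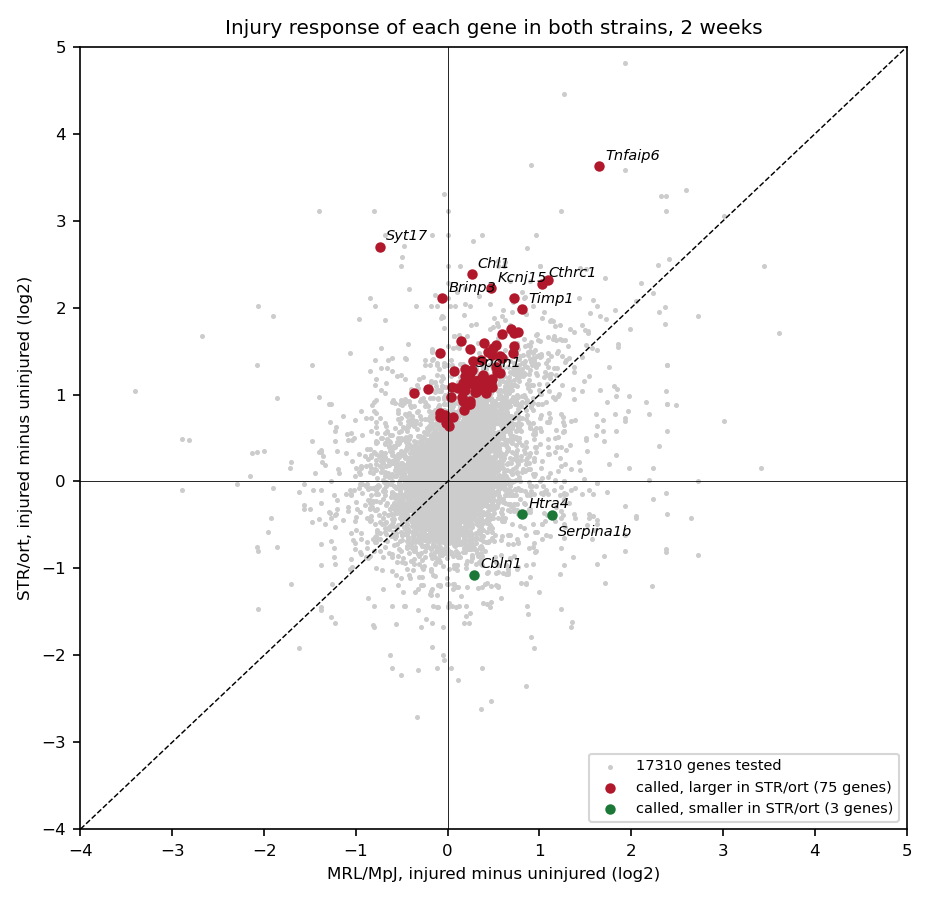
Injury response at 2-weeks post-injury of each of 17310 genes, as log2 of injured over uninjured joints in MRL/MpJ (x axis) and STR/ort (y axis), with 5 animals per strain and 0 genes outside the axes. The dashed line marks equal responses, the 75 genes with a larger response in STR/ort lie above it and the 3 with a smaller response (Htra4, Serpina1b, Cbln1) lie below it.

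Seen from the response of each strain, 807 genes were called in injured STR/ort joints (4.66% of genes tested; 752 up, 55 down, or 0.318%) and 201 in injured MRL/MpJ joints (1.16%; 198 up, 3 down). Of the 198 genes called up in MRL/MpJ, 178 were called up in STR/ort as well, 156 had a larger rise in STR/ort, and 11 were called larger and 2 smaller by the interaction. Of the 752 genes called up in STR/ort, the test of the difference itself called 75, and a gene that it did not call is not thereby shown to respond alike in both strains.

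Spondin 1 (Spon1, chr7:113765998-114043375, GRCm38), an extracellular matrix protein first known from the nervous system, had the smallest adjusted p of the genes with a larger STR/ort response. In the 5 STR/ort animals its level was 19.0, 17.8, 18.5, 22.3 and 15.7 CPM in uninjured joints and 48.1, 44.5, 36.1, 40.3 and 52.6 CPM in the injured joints of the same animals. In MRL/MpJ it was 27.5, 25.6, 26.7, 30.3 and 27.8 CPM in uninjured and 35.5, 34.5, 27.5, 31.0 and 34.3 CPM in injured joints. Uninjured STR/ort joints lay below every uninjured MRL/MpJ joint, and injured STR/ort joints lay above every injured MRL/MpJ joint. The log2 response was 1.25 in STR/ort and 0.24 in MRL/MpJ, a difference of 1.01 (SE 0.15, adjusted p = 0.00246).

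Col8a1 (chr16:57624256-57754737), the alpha 1 chain of the short-chain collagen VIII, rose from 60.6 to 86.4 CPM in uninjured STR/ort joints to 222, 199, 157, 226 and 212 CPM in injured joints. In MRL/MpJ the injured joints held 63.2, 51.5, 47.2, 56.5 and 61.3 CPM and the uninjured joints 38.4 to 46.0 CPM. The within-animal log2 difference was 1.15 to 1.80 in STR/ort and 0.12 to 0.69 in MRL/MpJ, so the animals did not overlap (difference 1.06, SE 0.17, adjusted p = 0.00266). The partner chain Col8a2 had a difference of 0.86 (SE 0.18, adjusted p = 0.0204), with 36.0 to 54.0 CPM in injured STR/ort and 12.3 to 13.7 CPM in injured MRL/MpJ joints. That call was lost without the uninjured MRL/MpJ library of animal 1 (adjusted p = 0.0928, the highest over all alternatives, which went down to 0.00201).

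Kcnj15, an inward-rectifier potassium channel, had 6.39 to 8.66 CPM in uninjured STR/ort joints and 31.8, 42.2, 23.9, 32.9 and 43.3 CPM after injury, against 4.79 to 7.06 CPM and 9.12, 10.9, 6.69, 8.72 and 9.41 CPM in MRL/MpJ. Uninjured joints of both strains overlapped, while injured joints did not. The response was 2.22 in STR/ort and 0.48 in MRL/MpJ (log2 difference 1.75, SE 0.29, adjusted p = 0.00306). Smoc1, a SPARC-related matricellular protein, had the same form, with 13.9 to 18.5 CPM in uninjured and 36.4 to 59.3 CPM in injured STR/ort joints against 14.1 to 15.1 and 13.1 to 24.1 CPM in MRL/MpJ (log2 difference 1.19, SE 0.20, adjusted p = 0.00359). Enpp1, the ectoenzyme that makes the mineralization inhibitor pyrophosphate, was called up in both strains, by 1.70 in STR/ort and 0.59 in MRL/MpJ on the log2 scale (difference 1.11, SE 0.19, adjusted p = 0.00501). Slc39a14, a zinc, manganese and iron importer, reached 96.3 to 173 CPM in injured STR/ort joints and 29.7 to 38.2 CPM in injured MRL/MpJ joints (log2 difference 1.03, SE 0.18, adjusted p = 0.00501). Spsb1, a SOCS box protein, had a response of 1.08 in STR/ort and 0.12 in MRL/MpJ (log2 difference 0.96, SE 0.17, adjusted p = 0.00501).

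Across the 75 genes, the lowest STR/ort animal lay above the highest MRL/MpJ animal in 69, where the same held for 1.92% of all genes. For all 3 genes with a smaller response the strains lay apart in the other direction, as did 0.491% of all genes. Those counts come from the contrast that chose the genes. For the 6 others, P3h4 and Brinp3 among them, the animals overlapped.

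**Figure D2:**
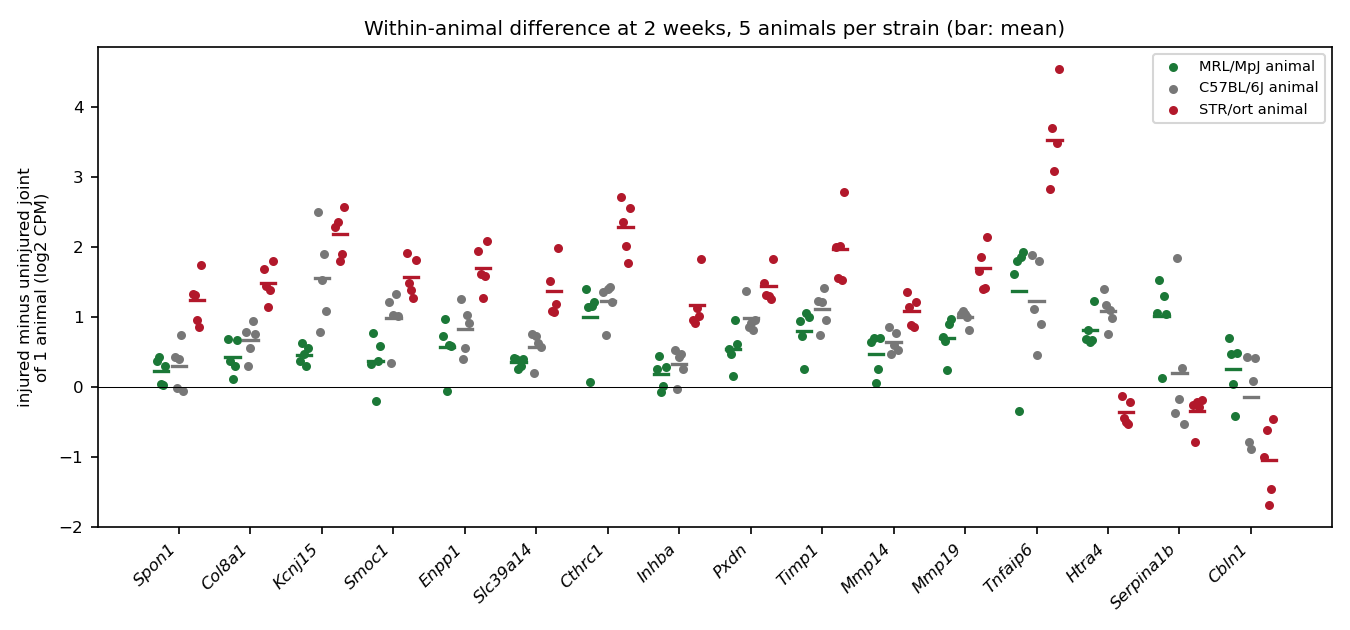
Log2 difference in CPM between the injured and the uninjured joint of each animal (y axis) for 16 genes called by the interaction, with 5 points per strain and a bar at the mean. STR/ort points of the first 13 genes lie above all MRL/MpJ points, those of Htra4, Serpina1b and Cbln1 lie below them, and C57BL/6J animals are shown beside both.

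The sequences upstream of 4 genes that moved together (a collagen, a matricellular protein, a protease inhibitor and a hyaluronan-binding protein) are shown as examples from different roles. RefSeq (GRCm38.p6) gave a promoter for 49 of the 75 genes. Each sequence below is the 250 bases before the start site on the gene's own strand. Capitals mark matches, on either strand, to TGANTCA (the site of AP-1, an injury-responsive factor), GGAATG (the site of TEAD factors) or TATAAA (the TATA box). They come from chr16:57754738-57754987 (minus strand) for Col8a1, chr17:14694263-14694512 (minus strand) for Thbs2, chrX:20869916-20870165 (plus strand) for Timp1 and chr2:52037863-52038112 (plus strand) for Tnfaip6.
Col8a1: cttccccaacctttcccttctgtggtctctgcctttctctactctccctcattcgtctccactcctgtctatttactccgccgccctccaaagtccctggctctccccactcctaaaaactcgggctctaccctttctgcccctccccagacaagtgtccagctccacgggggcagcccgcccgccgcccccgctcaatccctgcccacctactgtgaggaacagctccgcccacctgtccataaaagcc
Thbs2: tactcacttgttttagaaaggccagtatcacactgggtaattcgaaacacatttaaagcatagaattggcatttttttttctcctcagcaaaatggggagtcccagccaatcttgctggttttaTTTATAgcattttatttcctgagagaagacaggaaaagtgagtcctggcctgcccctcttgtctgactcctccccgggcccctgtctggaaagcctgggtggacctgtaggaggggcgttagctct
Timp1: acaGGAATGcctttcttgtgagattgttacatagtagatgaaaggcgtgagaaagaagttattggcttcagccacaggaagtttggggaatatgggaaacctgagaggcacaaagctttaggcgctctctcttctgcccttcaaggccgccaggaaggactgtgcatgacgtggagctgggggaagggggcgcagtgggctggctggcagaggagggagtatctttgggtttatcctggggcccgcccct
Tnfaip6: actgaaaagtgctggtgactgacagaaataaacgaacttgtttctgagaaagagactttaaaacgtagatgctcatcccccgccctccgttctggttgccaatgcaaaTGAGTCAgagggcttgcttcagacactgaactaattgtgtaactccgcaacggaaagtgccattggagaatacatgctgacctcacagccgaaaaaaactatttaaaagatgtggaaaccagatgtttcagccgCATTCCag
Col8a1 held none of the 3 motifs. The Tnfaip6 sequence held TGANTCA 142 bases and GGAATG 8 bases before the start site, the latter read on the opposite strand. Timp1 held GGAATG 247 bases and Thbs2 held TATAAA 126 bases before the start, on the opposite strand. Over the 62 promoters of the 49 genes, TGANTCA was present in 6.45%, GGAATG in 14.5% and TATAAA in 14.5%. The shares over 16110 promoters of all tested genes with an entry were 5.04%, 11.2% and 7.60%. The motifs do not overlap one another in these sequences, and the shares are descriptions with no test.

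Among the ligands, Inhba was the only one of 28 measured genes of the TGF-beta and BMP pathway that was called, where 0.433% of all genes were called larger (list median 0.13, against 0.01 for all genes, and 0.07 without the uninjured MRL/MpJ library of animal 1). Inhba encodes the subunit of activin A. Its level was 13.8 to 16.5 CPM in uninjured and 32.3, 26.1, 31.6, 33.2 and 53.9 CPM in injured STR/ort joints, and 14.6 to 17.6 and 16.2 to 20.1 CPM in MRL/MpJ joints. The 4 groups thus differed in the injured STR/ort joints, among which animal 5 was highest (log2 difference 1.03, SE 0.18, adjusted p = 0.00502). Pmepa1, a target and inhibitor of TGF-beta signaling outside the list, reached 134 to 175 CPM in injured STR/ort and 46.3 to 61.9 CPM in injured MRL/MpJ joints (log2 difference 0.84, SE 0.15, adjusted p = 0.00501). The ligand genes Tgfb1, Tgfb2 and Tgfb3 were not called, with differences of -0.11, 0.15 and 0.34.

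Of 19 measured genes on the list of fibrillar and fibril-associated collagens, which also holds the network-forming collagen VIII, 3 were called larger in STR/ort (Col8a1, Col8a2 and Col5a2), 0 were called smaller and 15 had a positive difference (median 0.37, and 0.24 without the injured MRL/MpJ libraries of animals 3 and 4), where 0.433% of all genes were called larger and 8880 of 17310 were positive. Of the 3, Col8a1 and Col8a2 encode collagen VIII and Col5a2 a fibrillar collagen. Col5a2, a chain of the fibril-regulating collagen V, reached 1759, 1758, 1320, 1586 and 1846 CPM in injured STR/ort joints from 615 to 796 CPM, and 490 to 717 CPM in injured MRL/MpJ joints from 396 to 514 CPM. The STR/ort animals all rose more than any MRL/MpJ animal (log2 difference 0.72, SE 0.16, adjusted p = 0.0256). With the animal as a block that call was lost (adjusted p = 0.0659, with a range of 0.00332 to 0.102 over all alternatives). The major scar collagens were not called. Col3a1 rose in both strains, by 1.97 in STR/ort and 1.82 in MRL/MpJ (log2 difference 0.15, SE 0.26, adjusted p = 0.926). Col1a1 had a difference of 0.41 (SE 0.16, adjusted p = 0.374).

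The enzymes that modify and crosslink collagen had 3 calls among 22 measured genes, 21 of which had a positive difference (median 0.41), beside the same 0.433% and 8880 of 17310 over all genes. Lox, the lysyl oxidase that initiates crosslinking, was at 93.6 to 134 CPM in uninjured and 193 to 314 CPM in injured STR/ort joints, and at 68.6 to 90.9 and 76.9 to 106 CPM in MRL/MpJ joints. Injured MRL/MpJ joints overlapped their controls while injured STR/ort joints did not (log2 difference 0.91, SE 0.18, adjusted p = 0.0156). Plod2, the telopeptide lysyl hydroxylase, had a response of 1.05 in STR/ort and 0.17 in MRL/MpJ (log2 difference 0.88, SE 0.19, adjusted p = 0.0256). P3h4, a component of a prolyl and lysyl hydroxylation complex, had a difference of 0.70 (SE 0.15, adjusted p = 0.0256), which the animal block moved to an adjusted p of 0.055 (0.00377 to 0.122 over all alternatives).

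Activated fibroblast and matricellular genes had 4 calls among 30 measured members, and 29 had a positive difference (median 0.37), against 0.433% called larger and 8880 of 17310 positive over all genes. The median response of the list was 1.22 in STR/ort and 0.76 in MRL/MpJ, with 22 and 19 members called up, respectively, where 4.34% and 1.14% of all genes were. Cthrc1, a secreted protein of wound fibroblasts, reached 131, 117, 90.3, 101 and 107 CPM in injured STR/ort joints from 17.9 to 29.6 CPM, and 27.1, 22.9, 15.3, 24.96 and 25.4 CPM in injured MRL/MpJ joints from 10.1 to 14.5 CPM. It was called up in both strains and rose more in STR/ort (log2 difference 1.25, SE 0.22, adjusted p = 0.00501). Thbs2, the matricellular thrombospondin 2, had a response of 1.48 against 0.71 (log2 difference 0.77, SE 0.15, adjusted p = 0.0156), and Tgfbi one of 1.06 against 0.36 (log2 difference 0.70, SE 0.14, adjusted p = 0.018). The fourth called member, fibrillin 2 (Fbn2), was outside the rule for named genes. Postn, the periostin gene, was called up in both strains, by 1.21 in STR/ort and 0.82 in MRL/MpJ, and was not called by the interaction (0.39, SE 0.13, adjusted p = 0.236).

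Pxdn, the peroxidase that crosslinks collagen IV, was the 1 called gene of 21 basement membrane genes (log2 difference 0.87, SE 0.16, adjusted p = 0.00931), beside 0.433% of all genes called larger. Of those 21 basement membrane genes 15 had a positive difference, with a median of 0.13, and 0.06 without the uninjured MRL/MpJ library of animal 1. It reached 85.4 to 113 CPM in injured STR/ort and 32.7 to 58.4 CPM in injured MRL/MpJ joints, and its call remained in each of the 34 alternatives. Of these alternatives, the one with no count filter was the same fit, because the filter removed 0 genes, and the one with no fold threshold could lose no call.

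**Figure D3:**
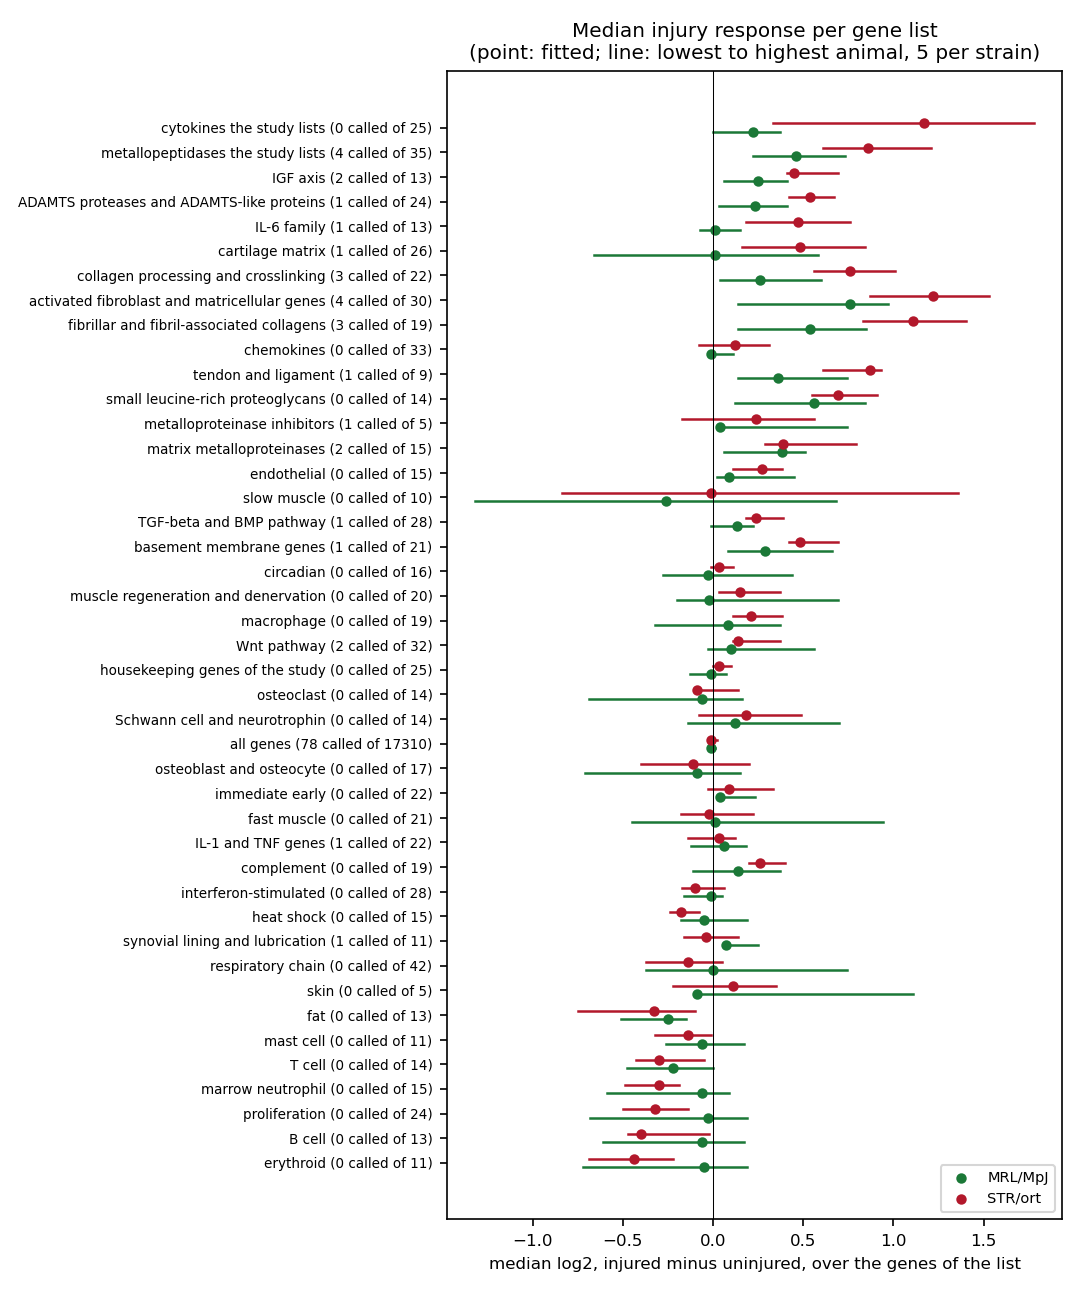
Median log2 injury response over the genes of each list (x axis) in MRL/MpJ and STR/ort, with a line from the lowest to the highest of 5 animals, ordered by the median interaction. The activated fibroblast list has medians of 1.22 in STR/ort and 0.76 in MRL/MpJ, and the erythroid, B cell, proliferation and marrow neutrophil lists lie between -0.44 and -0.30 in STR/ort and between -0.06 and -0.03 in MRL/MpJ.

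Proteases that degrade the matrix responded gene by gene. Of 15 measured matrix metalloproteinases 2 were called larger in STR/ort and 0 smaller, as were 0.433% and 0.0173% of all genes. Their median was 0.15. It ranged, over the fits that each left out 1 library, from 0.04 without the uninjured MRL/MpJ library of animal 1 to 0.39 without the uninjured STR/ort library of animal 4, and it was 0.36 with the animal as a block and 0.03 without the injured MRL/MpJ libraries of animals 3 and 4. Of 24 ADAMTS and ADAMTS-like genes 1 was called larger (0.433% of all genes; median 0.44). Mmp14, the membrane-bound collagenase that activates pro-MMP2, was at 306, 286, 230, 267 and 291 CPM in injured STR/ort joints and at 137, 141, 97.4, 120 and 140 CPM in injured MRL/MpJ joints, from 120 to 147 and 86.5 to 100 CPM. Every injured STR/ort joint was above every other joint (log2 difference 0.61, SE 0.12, adjusted p = 0.0177). Without the injured MRL/MpJ library of animal 4 the difference of Mmp14 was 0.54, below the fold threshold, with an adjusted p of 0.0266 (0.00124 to 0.0594 over all alternatives). Mmp19 was called up in both strains, by 1.70 and 0.72 (log2 difference 0.98, SE 0.20, adjusted p = 0.018). Adamts3, a procollagen N-proteinase, had a response of 0.75 in STR/ort and -0.09 in MRL/MpJ (log2 difference 0.83, SE 0.17, adjusted p = 0.0181).

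Mmp3, stromelysin 1, rose in both strains, by 2.56 and 2.41, with a difference of 0.15 (SE 0.64, adjusted p = 0.979). Mmp2 rose by 1.44 and 1.01 (log2 difference 0.43, SE 0.18, adjusted p = 0.417). The collagenase gene Mmp13 and the aggrecanase gene Adamts4 were not called, with differences of 0.34 (SE 0.23, adjusted p = 0.714) and 0.94 (SE 0.27, adjusted p = 0.118). The Adamts4 response was 1.44 in STR/ort, where it was called up, and 0.50 in MRL/MpJ, where it was not. The Adamts16 response was over 2 on the log2 scale in both strains (3.35 and 2.60, difference 0.75, SE 0.65, adjusted p = 0.788).

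Timp1, the secreted inhibitor of metalloproteinases, was the 1 called gene of 5 inhibitor genes measured, against 0.433% of all genes called larger. Its level was 21.7, 28.1, 19.9, 35.5 and 21.7 CPM in uninjured and 87.1, 83.4, 80.9, 102 and 151 CPM in injured STR/ort joints. In MRL/MpJ it was 12.8, 13.9, 14.5, 10.8 and 11.6 CPM in uninjured and 24.8, 23.2, 17.3, 22.8 and 23.2 CPM in injured joints. Every injured MRL/MpJ joint was below the highest uninjured STR/ort joint. Timp1 was called up in both strains, by 1.98 and 0.81 (log2 difference 1.17, SE 0.23, adjusted p = 0.0156).

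The metallopeptidase list of the study had 4 called members among 35 (Mmp14, Mmp19, Adamts3 and, outside the rule for named genes, Adam12), and 33 had a positive difference (median 0.47; over all genes 0.433% were called larger and 8880 of 17310 were positive). That list was drawn up by the study on these samples and is not independent evidence of its direction. The cytokine list of the study, 25 measured genes chosen in the same way, had a median of 0.87, with 19 positive differences and 0 called genes. Without the injured STR/ort library of animal 5 that median was 0.40. Of its members 10 were called up in STR/ort and 0 in MRL/MpJ, where 4.34% and 1.14% of all genes were. The test of the difference, however, called 0 of them by the edgeR quasi-likelihood test or DESeq2, where edgeR called 0.451% of all genes. An unadjusted p below 0.05 was found for 1631 of all 17310 genes and for 6 of this list. The likelihood ratio test called 1, and the fit with the animal as a block and without both joints of MRL/MpJ animal 4 called 3.

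Il11, a fibrogenic cytokine of the interleukin 6 family, had the smallest adjusted p of that list. It had 2.41, 2.53, 3.12, 3.41 and 4.12 CPM in injured STR/ort joints, 0.108 to 0.813 CPM in uninjured ones, and 0.0858 to 0.627 CPM over all MRL/MpJ joints in both states. The animals did not overlap, and the levels were low (log2 difference 2.46, SE 0.69, adjusted p = 0.0961, and 0.0332 to 0.236 over all alternatives). Il6 had differences within animals from -0.22 to 2.82 in STR/ort, where animal 5 held 2.37 CPM and the other injured joints 0.16 to 0.805 CPM. Ccl2, Ccl7 and Cxcl1, chemokines that attract monocytes and neutrophils, were also highest in the injured joint of STR/ort animal 5 (8.68, 10.6 and 3.42 CPM), and their adjusted p values were 0.786, 0.793 and 0.817. Ccl8 and Ccl17 gave adjusted p values of 0.801 and 0.832. Of 33 measured chemokines 0 were called by the edgeR quasi-likelihood test or DESeq2, and 5 had an unadjusted p below 0.05. Over all genes the edgeR test called 0.451%, and 1631 of 17310 had an unadjusted p below 0.05. The median of the chemokines was 0.31 and turned to -0.03 with filterByExpr, and it was 0.18 without the injured STR/ort library of animal 5 and 0.17 without the uninjured MRL/MpJ library of animal 1. The fit with the animal as a block and without both joints of MRL/MpJ animal 4 called 1 chemokine larger and 1 smaller.

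Downstream of cytokine receptors, Socs3, the feedback inhibitor of interleukin 6 signaling, was called. It was at 10.0 to 13.7 CPM in uninjured and 25.4, 23.7, 22.7, 26.3 and 36.1 CPM in injured STR/ort joints, and at 9.75 to 13.3 and 7.47 to 14.2 CPM in MRL/MpJ joints (log2 difference 0.97, SE 0.21, adjusted p = 0.0256). It was the called member of 13 genes of the interleukin 6 family list (IL-6 family; 0.433% of all genes were called larger; median 0.44, and 0.27 without the injured STR/ort library of animal 5). Tnfaip6, which encodes the hyaluronan-binding protein TSG-6, had the highest fold rise among the called genes, with 51.2, 51.6, 36.3, 46.0 and 90.0 CPM in injured STR/ort joints from 3.67 to 7.08 CPM. In injured MRL/MpJ joints it was at 4.81, 7.49, 1.29, 5.61 and 6.04 CPM, from 1.41 to 2.03 CPM. Animal 3 of MRL/MpJ did not rise and the other 4 did. The response was 3.62 in STR/ort and 1.65 in MRL/MpJ (log2 difference 1.97, SE 0.48, adjusted p = 0.0468), and the call was kept in 4 of the 20 fits that each left out 1 library. It was the called member among 22 genes of the interleukin 1 and TNF list (IL-1 and TNF genes), beside the same 0.433% of all genes. The median of that list was -0.02, and it was 0.04 without the uninjured STR/ort library of animal 4 and -0.14 without the injured MRL/MpJ libraries of animals 3 and 4. Il1a of that list was called smaller in STR/ort (-0.63, adjusted p = 0.0483) by the fit with the animal as a block and without both joints of MRL/MpJ animal 4.

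In the insulin-like growth factor axis (IGF axis) 2 of 13 genes were called larger, as were 0.433% of all genes. The median was 0.45, and it was 0.25 without the uninjured MRL/MpJ library of animal 3 and 0.29 without the uninjured STR/ort library of animal 4. Igfbp4 and Igfbp3 encode binding proteins that limit access of the growth factor to its receptor. Igfbp4 was at 370 to 596 CPM in injured STR/ort and 235 to 325 CPM in injured MRL/MpJ joints, from 220 to 286 and 236 to 254 CPM, so the uninjured joints overlapped and the injured ones did not (log2 difference 0.68, SE 0.14, adjusted p = 0.0177). Without the injured MRL/MpJ library of animal 4 its difference was 0.58 and the call was lost by the fold threshold (adjusted p = 0.0266, 0.00111 to 0.0615 over all alternatives). Igfbp3 had a difference of 0.74 (SE 0.17, adjusted p = 0.0369) and was called in 7 of the 20 fits without 1 library.

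Of 32 measured Wnt pathway genes 2 were called larger, as were 0.433% of all genes (median 0.08, against 0.01 for all genes, and 0.03 to 0.15 without 1 library, the highest without the injured MRL/MpJ library of animal 4 and the lowest without the uninjured STR/ort library of animal 5). Sfrp1, a secreted Wnt antagonist, rose by 1.75 in STR/ort and 0.69 in MRL/MpJ (log2 difference 1.06, SE 0.23, adjusted p = 0.0256), and the receptor gene Fzd1 by 1.18 in STR/ort, with a change of 0.39 in MRL/MpJ that was not called (log2 difference 0.79, SE 0.18, adjusted p = 0.0258). Sfrp2 and Fzd2 rose in both strains and were not called by the interaction (0.24, SE 0.31 and 0.38, SE 0.19). Dkk1 of the same list was called smaller in STR/ort (-0.59, adjusted p = 0.00889) by the fit with the animal as a block and without both joints of MRL/MpJ animal 4.

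Among skeletal lineage genes, Scx, the tendon and ligament transcription factor, was called (log2 difference 0.94, SE 0.22, adjusted p = 0.0356; called in 7 of the 20 fits without 1 library), with 11.3 to 12.5 CPM in injured and 5.19 to 7.14 CPM in uninjured STR/ort joints against 3.84 to 6.68 and 3.81 to 5.59 CPM in MRL/MpJ. The uninjured groups overlapped only in part, and the injured groups did not overlap. It was the called member of 9 tendon and ligament genes (tendon and ligament; 0.433% of all genes were called larger; median 0.22, and 0.13 without the injured MRL/MpJ library of animal 3). Of 26 cartilage matrix genes 1 was called, Fibin, a secreted protein of mesenchyme (log2 difference 0.83, SE 0.20, adjusted p = 0.0426; called in 5 of the 20 fits without 1 library), and 23 had a positive difference, beside 0.433% called larger and 8880 of 17310 positive over all genes. The median of the cartilage matrix genes was 0.43, and it was 0.28 without the injured MRL/MpJ library of animal 4 and 0.19 without those of animals 3 and 4.

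The defining cartilage genes were not called. Col2a1 was at 3750.4, 3072, 2663, 3339 and 3913 CPM in injured STR/ort and 1346, 1577, 1163, 712 and 1510.3 CPM in injured MRL/MpJ joints, from 1481 to 2208 and 897 to 1347 CPM. The value of 712 CPM belongs to MRL/MpJ animal 4, the library that stood apart (log2 difference 0.81, SE 0.24, adjusted p = 0.137, and 0.61 with an adjusted p of 0.0898 without it; 0.0488 to 0.332 over all alternatives). Acan, the aggrecan gene, had a difference of 0.55 (SE 0.22, adjusted p = 0.357). Prg4, the lubricin gene, rose in both strains, by 0.79 in STR/ort and 1.11 in MRL/MpJ (log2 difference -0.32, SE 0.24, adjusted p = 0.748). Acp5, an osteoclast gene, had a difference of 0.01 (SE 0.18, adjusted p = 1), and 0 of 14 osteoclast and 0 of 17 osteoblast and osteocyte genes were called by the edgeR quasi-likelihood test with all libraries or by DESeq2 (2 and 1 at an unadjusted p below 0.05). Over all genes the edgeR test called 0.451%, and 1631 of 17310 had an unadjusted p below 0.05. The fit with the animal as a block and without both joints of MRL/MpJ animal 4 called the osteoclast list gene Car2 smaller in STR/ort (-0.66, adjusted p = 0.000351). It also called smaller Cytl1 of the cartilage list (-0.92, adjusted p = 0.00054) and Angptl7 of the tendon list (-0.67, adjusted p = 0.00054). Cytl1 was called smaller as well in the fit that left out only the injured MRL/MpJ library of animal 4 (-0.93, adjusted p = 0.039).

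Among called genes with a group mean of at least 1 CPM, the 5 highest interaction values were those of Syt17, Brinp3, Chl1, Tnfaip6 and Kcnj15, of which Syt17 and Brinp3 were below 3 CPM in every joint of both strains. Syt17 was at 1.05 to 1.28 CPM in injured STR/ort joints and at most 0.278 CPM in uninjured ones, against 0 to 0.676 CPM over all MRL/MpJ joints (log2 difference 3.44, SE 0.76, adjusted p = 0.0256). Brinp3 had a difference of 2.17 (SE 0.51, adjusted p = 0.0389), with overlapping animals, and the block moved its adjusted p to 0.0766 (0.00532 to 0.175 over all alternatives). Chl1, a neural cell adhesion molecule, was at 10.8, 10.8, 14.4, 22.0 and 35.1 CPM in injured and 1.79 to 5.47 CPM in uninjured STR/ort joints, against 3.55 to 5.69 and 2.74 to 4.06 CPM in MRL/MpJ. Every injured STR/ort joint was above every other joint (log2 difference 2.13, SE 0.42, adjusted p = 0.0156). Mamdc2 had a difference of 0.31 (SE 0.42, adjusted p = 0.89).

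The response was called smaller in STR/ort for 3 genes. Htra4 (chr8:25024928-25038962), a serine protease of the HtrA family, had the smallest adjusted p of all genes. In MRL/MpJ it was at 17.0, 17.3, 19.7, 15.9 and 13.7 CPM in uninjured and 27.4, 30.5, 30.8, 25.3 and 32.3 CPM in injured joints. In STR/ort it was at 28.7, 34.1, 29.5, 38.2 and 30.3 CPM in uninjured and 26.2, 24.9, 20.7, 26.3 and 26.1 CPM in injured joints. All 5 MRL/MpJ animals went up and all 5 STR/ort animals went down. The strains did not overlap in uninjured joints, and they overlapped in injured joints. The response was called up in MRL/MpJ (0.81) and missed the fold threshold in STR/ort (-0.38), with a difference of -1.19 (SE 0.16, adjusted p = 0.000394). The call was kept in each of the 34 alternatives, between -1.29 and -1.11.

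Serpina1b, one of several near-identical alpha 1-antitrypsin genes of the mouse whose reads can be shared between copies, was at 2.83 to 8.86 CPM in injured and 2.57 to 3.52 CPM in uninjured MRL/MpJ joints. In STR/ort it was at 2.44 to 2.89 and 2.92 to 4.36 CPM. It was called up in MRL/MpJ (1.14) and not called in STR/ort (-0.39; difference -1.52, SE 0.32, adjusted p = 0.0181). Cbln1, a secreted C1q family protein best known from cerebellar synapses, was at 0.881 to 2.37 CPM in injured and 2.32 to 3.31 CPM in uninjured STR/ort joints, and it was called down there (-1.07; difference -1.36, SE 0.33, adjusted p = 0.0468). The Cbln1 call was lost with the animal as a block (adjusted p = 0.0766, 0.00397 to 0.114 over all alternatives).

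In the erythroid, B cell, marrow neutrophil and proliferation lists every measured member had a difference below 0 with all 20 libraries and TMM scaling. Of these genes 0 were called by edgeR or DESeq2. Over all genes 8880 of 17310 were above 0. In other blood cell lists, 11 of 19 macrophage, 5 of 14 T cell and 5 of 11 mast cell genes were above 0. Lists of other kinds also lay mostly below 0, with 1 of 42 respiratory chain and 2 of 15 heat shock genes above it. In several alternatives, housekeeping scaling, RUVg and the block among them, 1 B cell gene was above 0. An unadjusted p below 0.05 was found for 5 erythroid, 7 proliferation, 0 B cell and 0 marrow neutrophil genes, and for 1631 of all 17310 genes. The median difference was -0.42 over 11 erythroid genes, -0.34 over 13 B cell genes, -0.28 over 24 proliferation genes and -0.23 over 15 marrow neutrophil genes. Without the injured MRL/MpJ library of animal 4 these medians were -0.58, -0.54, -0.45 and -0.39. The B cell median was -0.14 without the uninjured STR/ort library of animal 5, and the marrow neutrophil median was -0.15 without the injured STR/ort library of animal 2. Over the same lists, the median response was -0.44, -0.40, -0.32 and -0.30 in STR/ort and -0.05, -0.06, -0.03 and -0.06 in MRL/MpJ. The summed level of the erythroid genes was 1960 to 2853 CPM in uninjured and 1507 to 2403 CPM in injured STR/ort joints, and 4775 to 5524 and 3589 to 5970 CPM in MRL/MpJ joints. The strains did not overlap in this sum in uninjured joints, and the injured and uninjured joints of each strain overlapped.

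In MRL/MpJ, the median erythroid change within animals was 0.19, 0.10, -0.13, -0.72 and 0.16 for animals 1 to 5, and in STR/ort it was -0.22, -0.45, -0.45, -0.42 and -0.69. The fast muscle genes of MRL/MpJ animal 4 had a median change of 0.94, against -0.45 to 0.10 in the other MRL/MpJ animals and -0.18 to 0.22 in STR/ort. All the other animals of MRL/MpJ thus lay above all STR/ort animals for the erythroid list, and animal 4 lay below them. Without the injured library of that animal 2 of the 11 erythroid genes (Klf1 and Car1) were called smaller in STR/ort, as were 38 of all 17310 genes. Without both of its joints, with the animal as a block, 9 of the 11 were. The same fit called smaller Bub1 of the proliferation list (-0.62, adjusted p = 0.000312) and Jchain of the B cell list (-0.62, adjusted p = 0.000443). Over the whole table that last fit called 325 genes, 178 larger and 147 smaller in STR/ort. It was chosen after the data were seen. Whether the share of muscle in that joint bears on these values was not tested.

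**Figure D4:**
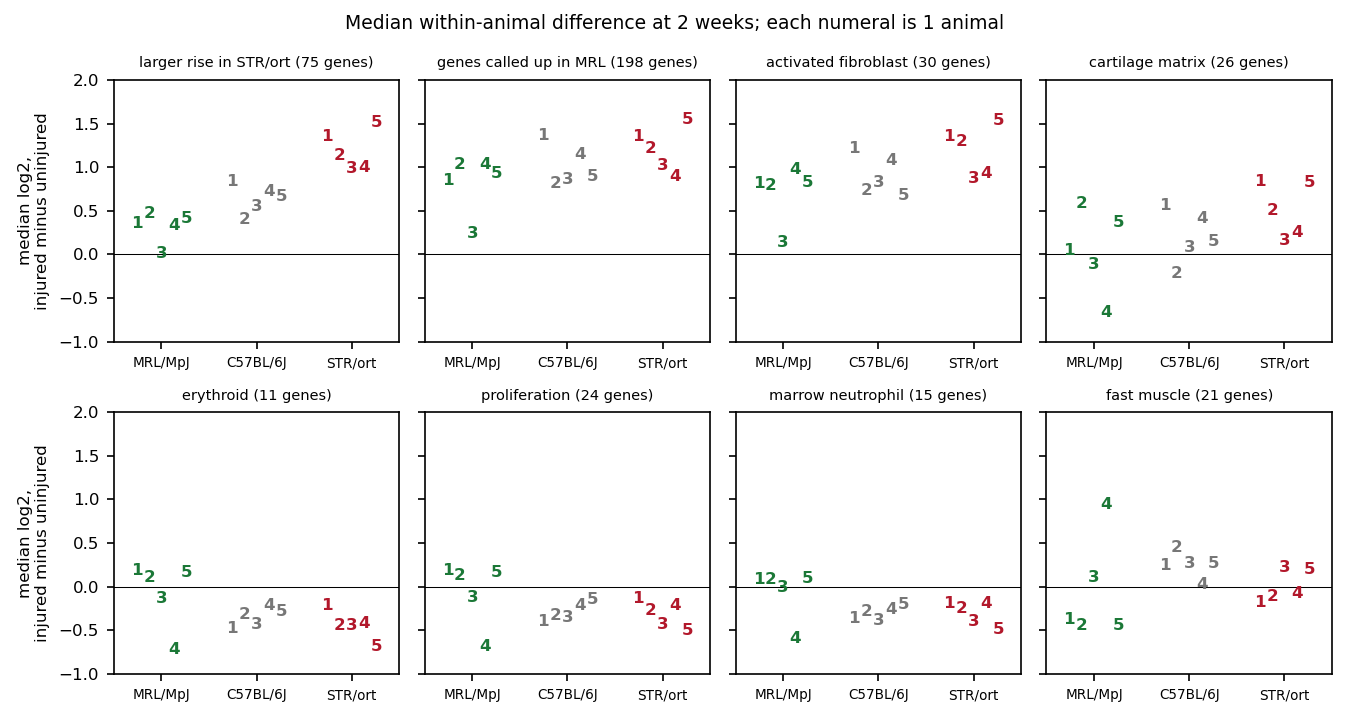
Median log2 difference between injured and uninjured joint (y axis) over the genes named in each panel, for each of 5 animals per strain, shown by its replicate number. MRL/MpJ animal 3 lies lowest of its strain for the injury-induced sets (0.24 for the 198 genes called up in MRL/MpJ), and MRL/MpJ animal 4 lies apart for the erythroid (-0.72) and fast muscle (0.94) sets.

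Animals of a strain did not respond to the same extent. Over the 75 genes the median response of the 5 MRL/MpJ animals was 0.35, 0.47, 0.01, 0.33 and 0.41, and that of the 5 STR/ort animals was 1.35, 1.13, 0.99, 1.00 and 1.51. The strains did not overlap, which the choice of these genes fixes. MRL/MpJ animal 3 was the lowest of its strain for 51 of the 75 genes and STR/ort animal 5 the highest for 47. Over the 198 genes called up in MRL/MpJ, animal 3 had a median change of 0.24 and the other 4 animals 0.85 to 1.03. For Col3a1 that animal changed by 0.67 and the others by 1.84 to 2.16. Without the injured MRL/MpJ library of animal 3, 43 genes were called by the interaction, 39 larger and 4 smaller in STR/ort, and 41 of the 78 remained. Without the injured libraries of both MRL/MpJ animals 3 and 4, 132 genes were called, 81 larger and 51 smaller, with 57 of the 78 remaining.

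The calls also depended on other single libraries. Leaving out the uninjured MRL/MpJ library of animal 1 left 21 calls, that of animal 4 left 48 and that of animal 5 left 48. The injured STR/ort libraries of animals 1, 3 and 5 gave 46, 122 and 39 calls when left out, and the uninjured STR/ort libraries of animals 1, 3 and 5 gave 51, 46 and 40. All 78 genes kept their sign in each alternative. In the 20 fits that each left out 1 library, 19 genes remained called in every fit, and they included Spon1, Col8a1, Kcnj15, Smoc1, Enpp1, Spsb1, Pmepa1, Slc39a14, Cthrc1, Inhba, Pxdn, Thbs2, Htra4 and Serpina1b. Timp1, Lox, Mmp19, Tgfbi, Col8a2, Adamts3 and Chl1 were called in 19 of the 20, and lost the call without the uninjured MRL/MpJ library of animal 1. Igfbp4 and Syt17 were called in 18, Plod2 in 15, Mmp14, P3h4 and Socs3 in 14, Sfrp1 in 13, Col5a2 in 12, Fzd1 in 11, Brinp3 in 8, Igfbp3 and Scx in 7, Fibin in 5 and Cbln1 in 3.

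C57BL/6J joints are not part of the interaction, although their 10 libraries share its estimate of the spread. The 75 genes had a median response of 0.67 in C57BL/6J, and 43 were called up there, where 2.88% of all genes were called up (2.95% in either direction, 0.0693% down). The C57BL/6J response was between those of MRL/MpJ and STR/ort in 66 of the 75, at or above that of STR/ort in 3 and below that of MRL/MpJ in 6. The 75 genes were chosen for a wide gap between those strains, into which the value of another strain tends to fall. The count of 66 therefore does not show that C57BL/6J responds to an intermediate extent, and it was not made over all genes. Brinp3 changed by 2.20 in C57BL/6J and 2.11 in STR/ort and Kcnj15 by 1.69 and 2.22, while Spon1 changed by 0.31 and Tgfbi by 0.22. Htra4 was called up in C57BL/6J (1.06), as in MRL/MpJ. No test compared C57BL/6J with the other strains for these genes.

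The strains also differed between their uninjured joints, which enter the interaction with the opposite sign. Of the 75 genes, 61 were higher and 14 lower in uninjured STR/ort than MRL/MpJ joints, 22 were called higher and 2 called lower, where 7.97% and 5.86% of all genes were (13.8% in either direction). Col8a1 (0.80), Timp1 (1.01), Thbs2 (0.93) and Fibin (1.02) were thus higher in STR/ort on the log2 scale in both joints, whereas Inhba (-0.08), Chl1 (-0.02) and Kcnj15 (0.21) were not called in uninjured joints. These comparisons share the uninjured libraries with the interaction.

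At the earlier times, measured in other libraries of another experimental batch, the same interaction was called for 153 genes at 1-week (0.884%; 63 larger and 90 smaller in STR/ort, 0.364% and 0.520%) and for 28 at 1-day (0.162%; 4 and 24, 0.0231% and 0.139%). The 1-week count was 341 with the replicate number as a block, 91 with the compared groups only and 96 to 240 without 1 library. At 1-week the injured libraries of replicate 5 had no uninjured partner in MRL/MpJ or STR/ort. The 1-day count was 6 to 76 without 1 library. Of the 75 genes, 68 had a positive interaction at 1-week, as did 7895 of the 17310 genes, and 11 were called larger and 0 smaller. Their median was 0.51 at 1-week and -0.12 at 1-day, when 24 were positive, as were 7578 of the 17310 genes, and 0 were called. Spon1 (0.97), Inhba (1.19) and Igfbp3 (0.90) were called at 1-week. Timp1 had 0.18 and Mmp19 -0.50 at 1-week, and neither was called. Htra4 was called smaller at 1-week (-1.53) and had -1.11 at 1-day, where it was not called. No gene was tested between times. The 1-day and 1-week libraries share a batch, while between 2-weeks and the earlier times batch and time cannot be told apart.

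**Figure D5:**
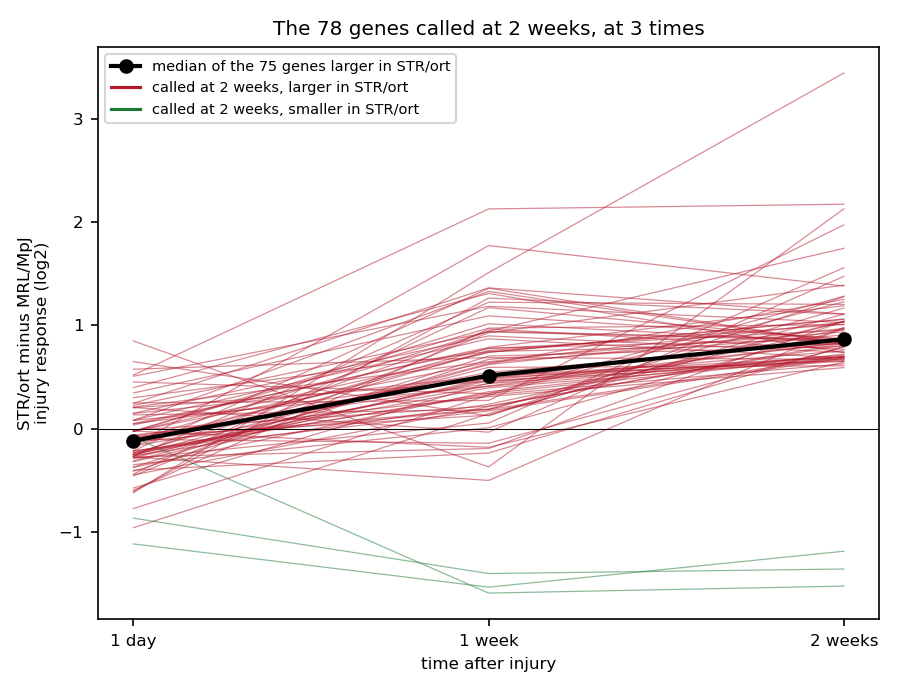
Interaction (STR/ort minus MRL/MpJ injury response, log2, y axis) at the 3 collection times after injury (x axis) for the 78 genes called at 2-weeks, with 1 line per gene and the median of the 75 genes in black. The median goes from -0.12 at 1-day to 0.51 at 1-week and 0.87 at 2-weeks, and the genes were chosen by the last value.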

How the data were processed

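RNA from whole knee joints was sequenced as poly(A)-enriched libraries. The authors aligned the reads to mm10 with TopHat2 (version 2.0.11), counted reads per RefSeq gene with featureCounts, and deposited whole-number counts without normalization; the strand setting of the counting is not given in the sources used here. The table lists 17313 genes. The 3 repeated entries were dropped, leaving 17310, of which 24 carry names that a spreadsheet turned into dates, and requiring 2 counts in 5 libraries or more, after the study, removed 0. Sample columns not used numbered 0. Of 40 pairs of libraries within the 4 groups, 0 held identical counts.

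In R 4.3.3, edgeR 4.0.16 was applied in 1 fit to the counts of the 30 libraries of 2-weeks, with 1 mean per strain and joint, TMM scaling, the quasi-likelihood test and Benjamini-Hochberg adjustment over all genes. A gene was called at an adjusted p below 0.05 and a fold above 1.5, the study's thresholds. Adjusted p values are from this fit and test unless another fit, or a range over all alternatives, is named beside them. Levels are given as TMM-scaled CPM, standard errors were derived from the test statistic and within-animal differences use log2 CPM with a prior count of 2. Each injured library shares its animal with the uninjured library of its number, since the labels' descriptions give both the same animal identifier. The correlation of their deviations from the group means over 5000 genes was 0.278 to 0.833 in STR/ort and -0.700 to 0.082 in MRL/MpJ. The study's method names no block, so the block by animal was an alternative. Earlier times were fitted separately, and their block was by replicate number. In simulated data for the 2-week interaction over 17310 genes, 84 of 100 genes changed by 1 and 97 of 100 changed by 2 on the log2 scale were recovered, with 8 false calls. The changed genes had a level of at least 1 CPM. The simulated counts had no other injury effect, no shared animal effect and no library that stood apart. These rates need not hold for the real libraries.

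Genes named are the called genes with a group mean of at least 1 CPM that had the 10 smallest adjusted p values or the 5 highest differences in each direction (all, where fewer), up to 3 called members of each list, and 26 further genes of inflammation, matrix and skeleton, many of which the study discusses. The comparison and its 43 lists were chosen with earlier results of these data known. Alternatives were RLE factors, housekeeping scaling, RUVg with 1 or 2 factors, DESeq2 (version 1.42.0), the likelihood ratio test, no filter, filterByExpr, the compared groups only, the block, no fold threshold and each library left out. A further 3 were added after the data were seen. Positions were matched by symbol for 16662 genes (GRCm38.p6, the mm10 assembly). Depth limits the precision of genes with few counts.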

Additional observations from a re-analysis of the deposited data

Results flagged for a closer look

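The injury response differed between STR/ort and MRL/MpJ by a test of the interaction for 78 genes at 2-weeks, 153 at 1-week and 28 at 1-day. Among the named genes, the 2-week difference was above 0 on the log2 scale for Spon1 (1.01), Col8a1 (1.06), Kcnj15 (1.75), Smoc1 (1.19), Enpp1 (1.11), Spsb1 (0.96), Pmepa1 (0.84), Slc39a14 (1.03), Cthrc1 (1.25), Inhba (1.03), Pxdn (0.87), Thbs2 (0.77), Chl1 (2.13), Lox (0.91), Timp1 (1.17) and Mmp14 (0.61). It was also above 0 for Igfbp4 (0.68), Mmp19 (0.98), Tgfbi (0.70), Adamts3 (0.83), Col8a2 (0.86), Plod2 (0.88), P3h4 (0.70), Syt17 (3.44), Socs3 (0.97), Col5a2 (0.72), Sfrp1 (1.06), Fzd1 (0.79), Scx (0.94), Igfbp3 (0.74), Brinp3 (2.17), Fibin (0.83) and Tnfaip6 (1.97). A difference below 0 was found for Htra4 (-1.19), Serpina1b (-1.52) and Cbln1 (-1.36).

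Single animals lay far from the other 4 of their strain in 11 of 116 groups of 5 within-animal differences tested (58 genes named, both strains), by Dixon's ratio with a critical value of 0.71. Chance alone gives about 1 in 20 such groups where the groups are independent. These groups share the same animals, so the count of 11 cannot be set against that rate. The log2 differences, each with the nearest of the other animals, were those of Cthrc1 in MRL/MpJ animal 3 (0.07, nearest 1.15), Inhba in STR/ort animal 5 (1.83, nearest 1.12), Socs3 in STR/ort animal 5 (1.83, nearest 1.02), Tnfaip6 in MRL/MpJ animal 3 (-0.35, nearest 1.61), Serpina1b in STR/ort animal 2 (-0.79, nearest -0.29), Mmp2 in MRL/MpJ animal 3 (0.22, nearest 1.10), Fzd2 in STR/ort animal 4 (0.66, nearest 1.02), Mmp13 in MRL/MpJ animal 4 (-1.02, nearest -0.10), Ccl17 in STR/ort animal 4 (-0.95, nearest 0.99), Sfrp2 in MRL/MpJ animal 3 (0.42, nearest 1.56) and Col3a1 in MRL/MpJ animal 3 (0.67, nearest 1.84). Of the 11, 5 came from MRL/MpJ animal 3, which was the lowest each time.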

How the results depend on the processing

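All 78 genes kept their direction in each of 34 alternatives, 17 were called in every one and 19 in every fit that left out 1 library. Among the 34, the fit with no count filter is identical because the filter removed 0 genes, and the one with no fold threshold keeps every estimate and can lose no call, so neither bears on stability. The count of 78 (75 larger and 3 smaller in STR/ort) became 49 (47 and 2) with RLE size factors, 37 (35 and 2) with filterByExpr, 36 (34 and 2) with the compared groups only, and 118 (113 and 5) with no fold threshold. The smaller responses were 7 with RUVg of 2 factors, 6 with DESeq2, 9 with the likelihood ratio test and 6 with the replicate block. Leaving out 1 library gave 21 to 150 calls, 18 to 120 larger and 2 to 38 smaller. A further 3 alternatives were chosen after the data were seen. Without the injured MRL/MpJ library of animal 4 and with RLE size factors 142 genes were called (115 and 27), without both joints of that animal and with the block 325 (178 and 147), and without the injured MRL/MpJ libraries of animals 3 and 4 132 (81 and 51).

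With the replicate block, which pairs both joints of an animal, 79 genes were called, 63 of the 78 among them. It ended the call of Col5a2, P3h4, Brinp3 and Cbln1 and of no other named gene. At 1-week a block by replicate number gave 341 calls in place of 153.

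The STR/ort response (807) was 2357 with no fold threshold and 715 to 886 without 1 library. The MRL/MpJ response (201) was 132 with RUVg of 2 factors, 333 with no fold threshold, 339 without the injured libraries of animals 3 and 4, and 156 to 260 without 1 library. The 1-week interaction was 230 with DESeq2, 250 with the likelihood ratio test, 91 with the compared groups only and 96 to 240 without 1 library, and the 1-day interaction (28) was 48 with the likelihood ratio test and 6 to 76 without 1 library. The cause of these changes was not tested. The part of depth in these changes was not tested, and Syt17 and Il11 were below 5 CPM in every joint of both strains.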
